A study of Mus musculus with 161 samples.

Results

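Blood monocytes were set against bone marrow (BM) monocytes that were sequenced on the same flow cell and lane, after cells with transcripts of dividing cells had been left out of both groups. Cells were chosen by measured values: a cell was left out when Top2a, Mki67 or Cdk1 lay above 10 TPM. These genes encode a DNA topoisomerase, a chromosome surface protein and the mitotic kinase, and all are made mainly in cycling cells. The rule kept 61 of the 95 monocytes, 29 of 38 from blood and 32 of 57 from marrow, out of 161 cells in the whole series. The other 66 cells are common monocyte progenitors (cMoP) of the marrow, most of them run on another flow cell, and are used below only as a further level for single genes.

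Both groups came from untreated C57BL/6 mice with no genetic change in the labels, and the age of the mice is not given. Blood monocytes were sorted as CD115+CD11b+Ly6Chi cells and marrow monocytes as Lin-CD117-CD115+CD135-Ly6C+ cells, so the gates differed in CD11b, in the level of Ly6C and in the exclusion of lineage-positive, CD117+ and CD135+ cells. CD115 is the receptor encoded by Csf1r, CD11b is encoded by Itgam, CD117 by Kit and CD135 by Flt3. The labels' protocol describes the preparation of marrow only, for the blood libraries too, so how the blood cells were prepared is not known here. Single cells were lysed and reverse transcribed from the poly(A) tail on a Fluidigm C1 chip, in which each capture site gives 1 library. The 95 monocyte libraries carried 95 different index pairs on 1 flow cell and 1 lane. The labels name no animal, so each group counts as 1 sample, cells are not replicates, and no test, p-value or standard error is given. Gate, tissue and handling of the sample cannot be told apart from the label of the group.

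Monocytes are made in the marrow from dividing progenitors, leave it through the receptor CCR2 and circulate in the blood as classical, Ly6C-high cells. CXCR4, which binds CXCL12 of the marrow stroma, holds leukocytes in the marrow. In blood, classical monocytes can convert to Ly6C-low patrolling cells, a step that depends on NR4A1 in the mouse, or enter tissues and take up antigen presentation by MHC class II. MHC class II molecules are pairs of an alpha and a beta chain that travel with the invariant chain, encoded by Cd74, and are loaded with peptide by H2-DM.

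The MHC class II genes formed the list with the highest median difference between the groups, so the promoters of 3 of them, chosen after their values were seen, are shown from RefSeq (GRCm38.p6). Each runs 5′ to 3′ on the strand of the gene, from 250 bases before to 50 bases after its start. Capitals mark TGATTGG, the core of the Y box of class II promoters, which NF-Y is known to bind. H2-Aa encodes the alpha chain of I-A (chr17:34287774-34288073, minus strand), H2-Eb1 the beta chain of I-E (chr17:34305617-34305916, plus strand) and H2-DMb1 the beta chain of the peptide loader (chr17:34152941-34153240, plus strand).
H2-Aa: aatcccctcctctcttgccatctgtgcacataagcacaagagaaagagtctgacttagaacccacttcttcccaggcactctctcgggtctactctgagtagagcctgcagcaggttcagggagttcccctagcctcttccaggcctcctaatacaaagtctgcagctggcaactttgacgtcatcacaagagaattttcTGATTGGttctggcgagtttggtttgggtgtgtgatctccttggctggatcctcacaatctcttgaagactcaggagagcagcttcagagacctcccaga
H2-Eb1: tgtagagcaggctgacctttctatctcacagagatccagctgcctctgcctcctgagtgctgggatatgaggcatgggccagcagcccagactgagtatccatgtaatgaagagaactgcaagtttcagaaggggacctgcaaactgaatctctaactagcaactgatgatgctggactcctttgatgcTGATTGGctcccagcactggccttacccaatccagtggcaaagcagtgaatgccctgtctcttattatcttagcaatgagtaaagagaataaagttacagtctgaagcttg
H2-DMb1: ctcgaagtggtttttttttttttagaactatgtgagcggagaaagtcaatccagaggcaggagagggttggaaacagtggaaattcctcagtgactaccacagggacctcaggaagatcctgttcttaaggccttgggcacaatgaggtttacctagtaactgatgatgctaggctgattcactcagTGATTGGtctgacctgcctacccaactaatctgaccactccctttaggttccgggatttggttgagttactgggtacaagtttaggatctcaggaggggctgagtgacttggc
The motif began 50, 61 and 63 bases before the start of H2-Aa, H2-Eb1 and H2-DMb1. TGATTGG or its reverse complement CCAATCA occurred in 7 of the 11 listed class II genes that the promoter table holds, of 14 listed, and in 7.82% of all 32851 promoters of this length. No other motif was searched, and a match is a description of the letters only.

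The exclusion had a different reach in the 2 groups. In the kept cells the highest value of any of the 3 genes was 9.24, 9.17 and 8.3 TPM in the 3 blood cells just inside the limit and 9.82, 9.27 and 9.17 TPM in the 3 marrow cells just inside it. Just outside, the values were 10.85, 10.85 and 11.18 TPM in blood and 12.42, 13.27 and 14.17 TPM in marrow. The 9 blood cells left out had a median of 14.3 TPM and a highest value of 101.57 TPM, while the 25 marrow cells left out had a median of 218.69 TPM and a highest value of 2495.27 TPM. Most blood cells left out thus lay close to the limit, with 1 above 100 TPM, against 13 of the 25 marrow cells.

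Cyclin B2 (Ccnb2), which drives entry into mitosis and is not part of the rule, lay above 10 TPM in 0 of 29 kept blood cells, which allows a share of up to 10.3%, and in 7 of 32 kept marrow cells. Its highest value was 2.03 TPM in blood and 1034.76 TPM in marrow. The kept marrow cells therefore still held cells with a mitotic transcript, and some values below are given without those 7 cells as well.

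The libraries of both groups had similar complexity. Genes above 1 TPM numbered from 3113 to 5212 per cell in blood, with a median of 4121, and from 3031 to 5295 in marrow, with a median of 4228. The median share of TPM from mitochondrial transcripts was 4.33% in blood and 4.09% in marrow, and that from ribosomal protein genes 5.68% in blood and 6.35% in marrow. TPM is scaled to a fixed total, sequencing depth cannot be read from it, and a gene listed at 0 may have been lost in capture. S100a9, an abundant monocyte and neutrophil transcript, is listed at 0 in every cell of the series, although S100a8 was measured. The cause was not tested, so a gene at 0 throughout need not be absent from the cells.

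Most cells carried the transcripts of their gates. Csf1r had a median of 243 TPM in blood cells and 19.1 TPM in marrow cells, a difference of 2.54 in mean log2(TPM + 1), and the lysozyme gene Lyz2, a marker of monocytes and macrophages, had medians of 53852 TPM in blood and 60008 TPM in marrow. Itgam was close between the groups, with medians of 65.3 TPM in blood and 59.3 TPM in marrow. Kit was listed at 0 in every kept cell, and Flt3 exceeded 10 TPM in 2 blood cells and 0 marrow cells. Ly6c2, which encodes the sorted antigen Ly6C, went against the gate in a few cells: 5 blood cells had between 13.9 and 62.6 TPM while all other blood cells had at least 817 TPM, and 1 marrow cell had 65.6 TPM while the others had at least 595 TPM. Without these 6 cells, 24 blood and 31 marrow cells were left, and 77 of the 89 named genes with a difference of at least 2 in size kept it. Without the 7 marrow cells with Ccnb2, 76 of the 89 did. Other settings kept fewer: 65 over all labelled cells, 64 with a limit of 100 TPM for a dividing cell, 62 with a limit of 1 TPM, 41 on the ratio of mean TPM and 26 with a pseudocount of 10. With the limit of 1 TPM, Apoe, H2-Aa, H2-Ab1 and Cd74 were among those no longer past 2.

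Most markers of other blood lineages were scarce in most cells of both groups, with exceptions given below. In 12 lists of 10 markers each, 2 of the 120 entries were not in the table, 56 were listed at 0 in every kept cell and 85 never exceeded 10 TPM. Among them, Cd79a of B cells, Cd3e of T cells, Ncr1 of NK cells, Ltf, Camp and Ngp of neutrophil granules and Pf4 of platelets were at 0. Other members of the same lists were detected, such as Cd79b of B cells and Cd3d and Cd4 of T cells. The B-cell list summed to at most 1050.3 TPM in blood and 34.9 TPM in marrow. The neutrophil list of 10 genes summed to a median of 68.8 TPM in blood (4.0 to 1289 TPM) and 177 TPM in marrow (4.6 to 2484 TPM), with 5 of its 10 genes at 0 throughout. The other 5, Lcn2, Cxcr2, Csf3r, Cd177 and Ly6g, had a median share above 10 TPM of 27.6% of blood cells and 43.75% of marrow cells. The conventional dendritic cell list summed to a median of 5.3 TPM in blood (highest 1230.4 TPM) and 3.03 TPM in marrow (highest 884 TPM). Single marrow cells reached 1755.8 TPM for the stem and progenitor list and 1547.4 TPM for the plasmacytoid dendritic cell list. For the T-cell and macrophage lists the highest marrow sums were 1001.3 and 1000.3 TPM. The basophil and mast cell list reached 563.2 TPM in blood and 2.91 TPM in marrow. Zbtb46, which marks conventional dendritic cells, never passed 10 TPM, Cd209a did in 2 blood and 4 marrow cells, and Batf3 in 5 blood and 0 marrow cells. Ms4a3, the gene whose expression history the series traces, did not exceed 10 TPM in any kept cell of either group, with highest values of 6.65 TPM in blood and 8.29 TPM in marrow.

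Over 11481 measured genes, which means that at least 10% of the kept cells of 1 group had over 1 TPM, more genes were lower than higher in blood. The measure was the difference in mean log2(TPM + 1), blood minus marrow. It was at least 2 for 65 genes (0.566% of those measured) and at most -2 for 188 genes (1.64%). The share of cells above 10 TPM was at least 25 percentage points higher in blood for 95 genes (0.827%) and at least 25 points lower for 298 genes (2.6%). The median difference over all measured genes was -0.05, with 46.8% of genes above 0 and 53.2% below 0. The 2 groups were thus centred nearly alike. Lower genes were in slight excess over all measured genes, and in proportion more so among the large differences.

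The gene with the largest difference in favour of blood was Apoe, the lipid carrier apolipoprotein E (chr7:19696109-19699188). It had a median of 2356 TPM in blood (0 to 6865 TPM) and 9.14 TPM in marrow (0 to 2223 TPM), giving mean log2(TPM + 1) values of 9.15 ± 4.21 in blood (SD over 29 cells) and 4.75 ± 3.95 in marrow (SD over 32 cells) and a difference of 4.40. Apoe was close to all or none in blood, where 0 cells lay between 10 and 100 TPM, but graded in marrow, where 5 did. In all, 22 of 29 blood cells (75.9%, exact Clopper-Pearson 95% interval 56.5% to 89.7%) and 10 of 32 marrow cells (31.2%, 16.1% to 50.01%) had over 100 TPM. These intervals cover the counting of cells only. The lead of Apoe depended on the processing. On the ratio of mean TPM its difference was 2.77, below several other named genes, such as H2-Eb1 (8.20) and Tubb6 (5.55). With a limit of 1 TPM for a dividing cell the difference of Apoe was 1.96 against 6.05 for Metrnl. Over all labelled cells, dividing ones included, the difference of Apoe was 5.33. The lipid handling list as a whole differed little. Of its 20 measured genes (of 27 listed), 13 were higher and 7 lower in blood, with a median of 0.25. Pla2g7, a phospholipase that inactivates platelet-activating factor, was higher with medians of 35.8 TPM in blood and 0.655 TPM in marrow, a difference of 2.44. Pltp, the phospholipid transfer protein, exceeded 10 TPM in 6 blood cells and 0 marrow cells, whereas Abcg1, a cholesterol exporter, was lower, with medians of 0.78 TPM in blood and 312 TPM in marrow and a difference of -3.08.

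Metrnl and Tubb6 followed. Metrnl, which encodes a secreted meteorin-like protein, had a median of 136 TPM in blood (0 to 2351 TPM) and 1.92 TPM in marrow (0 to 1061 TPM), a difference of 4.17. It exceeded 10 TPM in 22 of 29 blood cells and 5 of 32 marrow cells. Tubb6, a beta-tubulin isotype, had a median of 84.4 TPM in blood (0 to 4306 TPM) and 0 TPM in marrow (0 to 183 TPM), a difference of 4.15. Both distributions overlapped between groups, but few marrow cells reached the middle of the blood range.

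**Figure D1:**
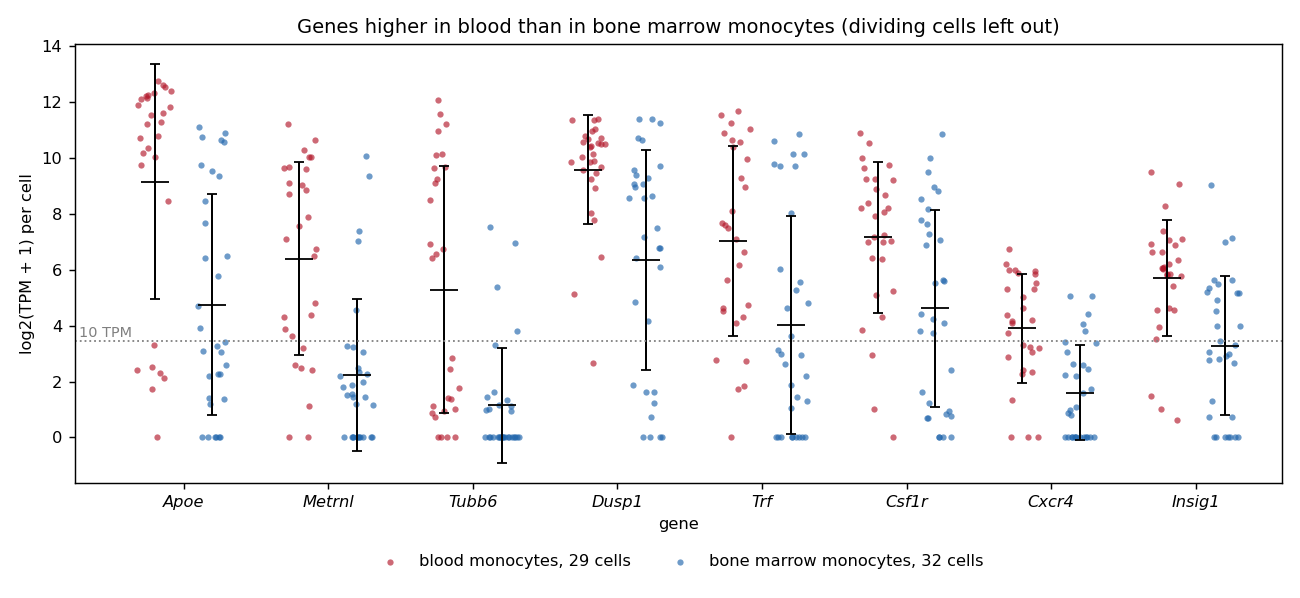
Values of 8 genes in single cells, as log2(TPM + 1) per cell, with 29 blood monocytes in red on the left of each gene and 32 bone marrow monocytes in blue on the right; bars are the mean and SD over cells, and the dotted line is 10 TPM. For Apoe, 22 blood cells and 10 marrow cells lie above 100 TPM, the other 7 blood cells lie below 10 TPM, and 5 marrow cells lie between.

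Among the genes at least 2 higher in blood were regulators of signalling. Dusp1, a phosphatase that switches off MAP kinases, had a median of 1135 TPM in blood (5.3 to 2671 TPM) and 161 TPM in marrow (0 to 2712 TPM), a difference of 3.24. Tsc22d3, the glucocorticoid-induced leucine zipper gene, had medians of 231 TPM in blood and 3.5 TPM in marrow, a difference of 2.66. Camk2d, a calcium/calmodulin-dependent kinase subunit, differed by 3.10, and Marcks, an actin-binding protein kinase C substrate, by 2.93. Fcgr2b, the inhibitory receptor for IgG, had medians of 171 TPM in blood and 2.96 TPM in marrow, a difference of 2.69. Other genes of this size were Trf (transferrin, 3.02), Tmem176b (a membrane protein of myeloid cells, 3.0), AF251705 (2.83) and Erdr1 (2.63).

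By the share of cells, the widest differences in favour of blood outside these genes were for Insig1, Cxcr4, Eif4a3, Ier5, Picalm, Cd300ld, Rint1, Ift80, Atr and Scpep1os. Atr, the kinase of the replication stress response, exceeded 10 TPM in 21 blood and 10 marrow cells (difference 1.01). On the ratio of mean TPM, however, the difference of Atr was -1.34, lower in blood. Picalm, a clathrin adaptor, exceeded 10 TPM in 21 blood and 12 marrow cells. Cd300ld, of the CD300 receptor family, exceeded 10 TPM in 14 blood and 4 marrow cells. A further 5 genes named for passing 10 TPM in blood cells alone were Ahctf1 (10 of 29 blood cells), Lair1 (9), Klf9, Dusp2 and Eno1b (8 each), against 0 of 32 marrow cells, which allows a share of up to 9.38%. Lair1 encodes an inhibitory collagen receptor, Dusp2 a MAP kinase phosphatase and Klf9 a glucocorticoid-responsive transcription factor. Of the marrow cells left out as dividing, 3 had Lair1 above 10 TPM.

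MHC class II presentation had the highest list median, 1.29 against -0.05 for all measured genes, with 10 of 12 measured members (of 14 listed) higher in blood, 2 lower, and 5 at least 2 higher. Of all measured genes, 46.8% were higher and 0.566% at least 2 higher. H2-Aa (chr17:34282744-34287823) had a median of 6 TPM in blood (0 to 19550 TPM) and 2.88 TPM in marrow (0 to 6951 TPM), with means of 5.98 ± 5.61 in blood and 2.28 ± 2.44 in marrow (SD over 29 and 32 cells) and a difference of 3.70. H2-Eb1 had a median of 2.66 TPM in blood (0 to 9403 TPM) and 0 TPM in marrow (0 to 64.2 TPM), a difference of 3.69. The medians of both groups were low and close to each other, so the difference came from the upper part of the blood cells. H2-Ab1, the I-A beta chain, differed by 3.08, and Cd74 by 3.10, with Cd74 medians of 383 TPM in blood and 17.4 TPM in marrow. Of the H2-DM genes, H2-DMb1 exceeded 10 TPM in 15 blood and 9 marrow cells (difference 2.15), and H2-DMa in 25 blood and 23 marrow cells (1.76). Ciita, the class II transactivator, exceeded 10 TPM in 3 blood and 1 marrow cells (0.65).

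The class II transcripts came together in the same cells. H2-Aa, H2-Ab1 and Cd74 all lay above 1000 TPM in 10 of 29 blood cells (34.5%, 17.9% to 54.3%) and in 1 of 32 marrow cells (3.12%, 0.0791% to 16.2%). H2-Aa was either above 1000 TPM, in 11 blood and 1 marrow cells, or at most 100 TPM, in 18 blood and 30 marrow cells, leaving 1 marrow cell in between. Cd74 was less tied to this split, since 7 blood and 11 marrow cells had Cd74 above 100 TPM with H2-Aa at or below 100 TPM. Of the 11 blood cells high in H2-Aa, 10 also had Apoe above 100 TPM, as did 12 of the other 18 blood cells, so the Apoe-high cells reached beyond the class II-high ones. Among the 6 cells low in Ly6c2, 3 of the 5 blood cells and the marrow cell had H2-Aa above 1000 TPM. Without those 6 cells the list median was 1.96 and the difference of H2-Aa 3.59. With a limit of 1 TPM for a dividing cell, which kept 7 blood and 10 marrow cells, the list median was -0.02 and the difference of Cd74 -0.65. Conventional dendritic cell markers in the same groups are given above, and their part in the class II values was not tested.

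**Figure D2:**
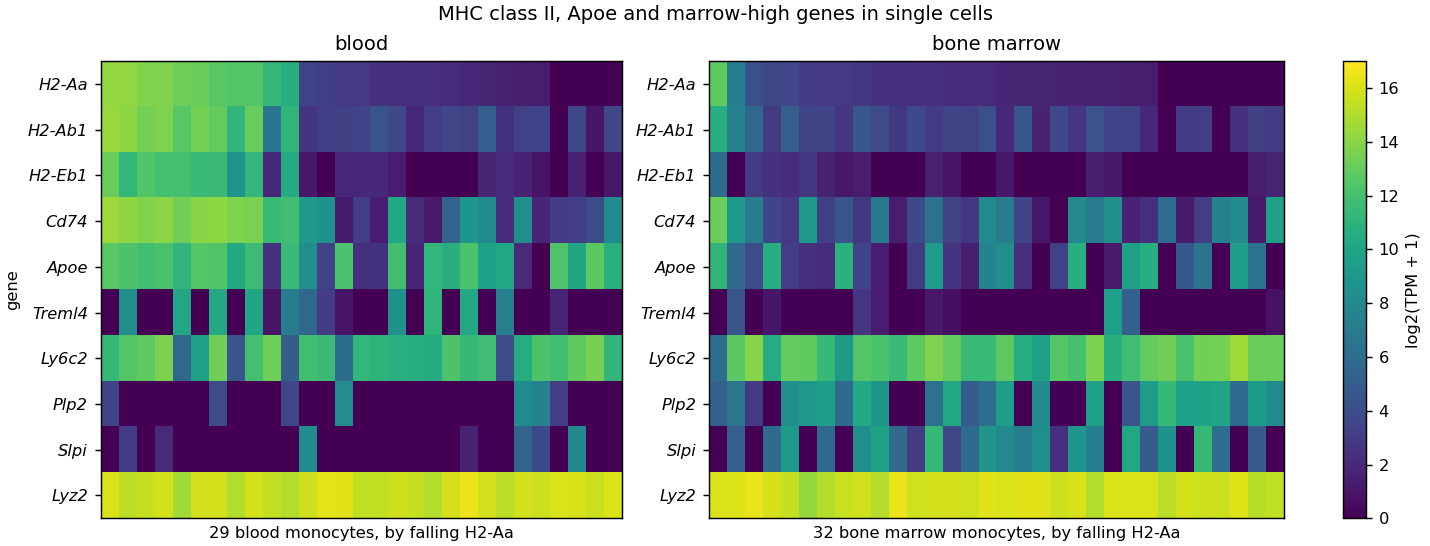
Heat map of log2(TPM + 1) for 10 genes (rows) in single cells (columns), 29 blood monocytes on the left and 32 bone marrow monocytes on the right, each ordered by falling H2-Aa. The 11 blood cells and 1 marrow cell with H2-Aa above 1000 TPM stand at the left of each panel, Lyz2 is high in all cells, and Plp2 and Slpi are mostly low in blood.

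MHC class I presentation was mixed, with 13 of 22 measured members higher and 9 lower, a median of 0.22 and 0 members past 2 in either direction. Tap1, the peptide transporter, exceeded 10 TPM in 9 blood and 3 marrow cells (difference 1.96) and Nlrc5, the class I transactivator, in 12 blood and 3 marrow cells (1.65), while the immunoproteasome subunit Psmb9 differed by -1.72.

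Genes linked to the conversion into Ly6C-low monocytes were higher in blood for 14 of 19 measured (of 26 listed), beside 46.8% of all measured genes. Their median was 0.51. Treml4, a receptor of Ly6C-low monocytes, exceeded 100 TPM in 9 blood and 1 marrow cells (difference 2.46), and 3 of the 9 were cells low in Ly6c2. Gngt2, a G protein gamma subunit, had medians of 396 TPM in blood and 17 TPM in marrow (2.20). Nr4a1, the factor that Ly6C-low monocytes depend on, was above 10 TPM in 12 blood and 8 marrow cells (1.39). Classical monocyte effectors were lower in blood for 18 of 28 measured (of 30 listed), beside 53.2% of all measured genes, with a median of -0.77. F13a1, coagulation factor XIII A, had medians of 161 TPM in blood and 1166 TPM in marrow (-2.84). Hp, haptoglobin, had medians of 55.9 TPM in blood and 705 TPM in marrow (-2.78). Fn1, fibronectin, differed by -1.94.

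The list of marrow exit and chemokine receptors had 12 of 16 measured members (of 22 listed) higher in blood, beside 46.8% of all measured genes. Its median was 0.57. Only Cxcr4, the receptor that holds cells in the marrow, passed 2. Cxcr4 (chr1:128588199-128592293) had a median of 17.1 TPM in blood (0 to 106 TPM) and 1.06 TPM in marrow (0 to 32.6 TPM), a difference of 2.29, and exceeded 10 TPM in 17 of 29 blood cells and 5 of 32 marrow cells. The marrow cells left out as dividing had a higher median, 11.8 TPM, and cMoP had 24.5 TPM, so the kept marrow cells were the lowest of these groups. Over all cells the difference of Cxcr4 was 1.33. Ccr2 exceeded 10 TPM in every kept cell, with medians of 1259 TPM in blood and 1460 TPM in marrow and a difference of -0.66. The chemerin receptor Cmklr1 exceeded 10 TPM in 9 blood and 1 marrow cells (1.88). Cx3cr1, a receptor of patrolling monocytes, had medians of 39.8 TPM in blood and 10.9 TPM in marrow (1.18) and the platelet-activating factor receptor gene Ptafr differed by 1.34. S1pr1, the receptor for sphingosine 1-phosphate, was listed at 0 in every kept cell.

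Chemokine and cytokine genes were higher in 13 of 18 measured members (of 29 listed), beside 46.8% of all measured genes. Their median was 0.59. Cxcl2 exceeded 10 TPM in 13 blood and 6 marrow cells (difference 1.81), and Il1b in 11 blood and 6 marrow cells (1.82). Ccl3, an inflammatory chemokine, went the other way: it was above 10 TPM in 6 blood and 20 marrow cells, with medians of 0 TPM in blood and 92.3 TPM in marrow and a difference of -3.60. Integrins, selectins and their ligands were split, 11 higher and 9 lower of 20, with a median of 0.06. Selplg, the P-selectin ligand, was lower (-2.44), while Itgb5 differed by 1.61.

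Immediate early genes, the first to be transcribed when a cell is stimulated, were higher in 16 of 26 measured members (of 33 listed). Over all measured genes 46.8% were higher, and the list median was 0.45. Besides Dusp1, Atf3 had medians of 561 TPM in blood and 153 TPM in marrow (difference 2.08), and Ier5 exceeded 10 TPM in 19 blood and 9 marrow cells (2.04). Of the AP-1 genes, Junb was higher, with medians of 38.9 TPM in blood and 2.31 TPM in marrow (1.91), while Fos and Jun differed little, with Fos medians of 1079 TPM in blood and 985 TPM in marrow (0.17) and a Jun difference of -0.53. Feedback genes of NF-kB, the inflammatory transcription factor, were higher in 19 of 24 measured (of 27 listed; median 0.47), with Nfkbia, its inhibitor, at medians of 490 TPM in blood and 163 TPM in marrow (1.98). Of the type I interferon response genes, 19 of 35 measured were higher and 16 lower, with a median of 0.15. Its largest members pointed both ways: Rtp4 had medians of 170 TPM in blood and 1.31 TPM in marrow (2.50), while Usp18, which damps interferon signalling, differed by -2.47.

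Transcription factors of myeloid cells were higher in 22 of 33 measured members (of 42 listed), beside 46.8% of all measured genes. Their median was 0.58. Maf had a median of 80.3 TPM in blood (0 to 344 TPM) and 0.08 TPM in marrow (0 to 211 TPM), a difference of 2.84. It encodes a bZIP factor of the macrophage and monocyte lineage. Klf6 differed by 1.86 and Klf3 by 1.69, while Klf4, required for monocyte formation in mice, differed by -1.30. Fc and complement receptors were split, 7 higher and 6 lower of 13. Fcgr2b stood at the upper end and properdin (Cfp), which stabilises the alternative complement convertase, at the lower end, with medians of 6.99 TPM in blood and 197 TPM in marrow (-2.58).

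Genes of cholesterol synthesis and its control were higher in 15 of 21 measured members (of 26 listed), beside 46.8% of all measured genes. The list median was 0.60, against 0.18 over all cells. Insig1, which retains the SREBP activation complex in the endoplasmic reticulum, had a median of 66 TPM in blood (0.55 to 718 TPM) and 8.07 TPM in marrow (0 to 520 TPM), a difference of 2.42. It exceeded 10 TPM in 26 of 29 blood cells and 14 of 32 marrow cells. Hmgcs1, an early enzyme of the pathway, exceeded 10 TPM in 9 blood and 1 marrow cells (2.10), and Cyp51, a later enzyme, in 5 blood and 0 marrow cells (1.28). Ebp, a sterol isomerase, differed by -1.40.

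On the side of the marrow, the largest difference of a named protein-coding gene was that of Plp2, a small membrane proteolipid (chrX:7667941-7671390). It had a median of 0 TPM in blood (0 to 325 TPM) and 190 TPM in marrow (0 to 2639 TPM), with means of 1.32 ± 2.63 in blood and 6.26 ± 3.88 in marrow (SD over 29 and 32 cells) and a difference of -4.94. Slpi, the secretory leukocyte protease inhibitor (chr2:164354070-164389095), had a median of 0 TPM in blood (0 to 306 TPM) and 59.1 TPM in marrow (0 to 2691 TPM), a difference of -4.26. Plp2 exceeded 10 TPM in 6 of 29 blood cells (20.7%, 7.99% to 39.7%) and 24 of 32 marrow cells (75%, 56.6% to 88.5%), and Plp2 together with Slpi in 2 blood and 18 marrow cells. The kept blood cells were thus largely without these transcripts, although 8 of them had at least 1 of both above 10 TPM, against 28 marrow cells. The list of tetraspanins and small membrane proteins that holds Plp2 was otherwise split, 6 higher and 11 lower of 17 with a median of -0.21, and Cd53, a leukocyte tetraspanin, had medians of 2277 TPM in blood and 1099 TPM in marrow (1.2).

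Both Apoe and Plp2 were picked for their difference between the groups, so their joint counts describe the cells and add no support to it. Apoe above 100 TPM with Plp2 at or below 10 TPM was found in 18 of 29 blood cells (62.1%, 42.3% to 79.3%) and 2 of 32 marrow cells (6.25%, 0.766% to 20.8%). The reverse, Plp2 above 10 TPM with Apoe at or below 100 TPM, was found in 2 blood and 16 marrow cells. Another 4 blood and 8 marrow cells had both, and 5 blood and 6 marrow cells had neither. Within marrow, Plp2 was above 10 TPM in 8 of the 10 cells high in Apoe and in 16 of the other 22.

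**Figure D3:**
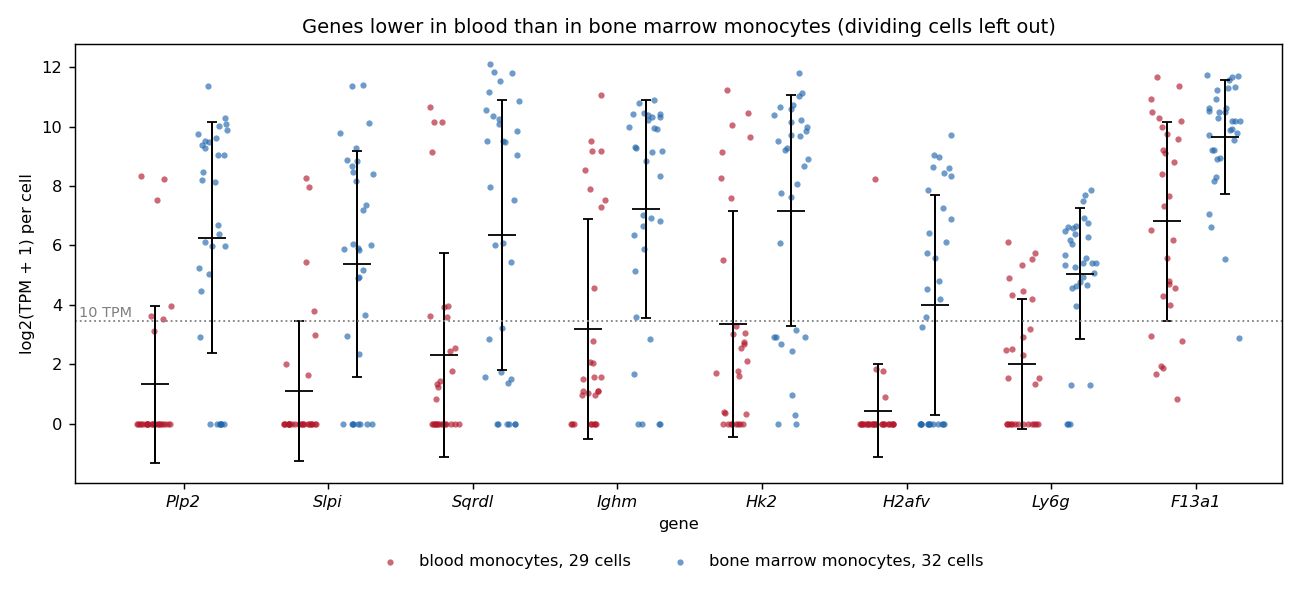
Values of 8 genes in single cells, as log2(TPM + 1) per cell, with 29 blood monocytes in red on the left of each gene and 32 bone marrow monocytes in blue on the right; bars are the mean and SD over cells, and the dotted line is 10 TPM. Plp2 exceeds 10 TPM in 6 blood and 24 marrow cells and H2afv in 1 blood and 18 marrow cells.

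Metabolic genes were among those lower in blood. Hk2, hexokinase 2, had a median of 3.33 TPM in blood (0 to 2420 TPM) and 534 TPM in marrow (0 to 3548 TPM), a difference of -3.80. Sqrdl, the mitochondrial sulfide oxidising enzyme, had medians of 0.76 TPM in blood and 216 TPM in marrow (-4.05), and Ech1, an enzyme of fatty acid oxidation, 0 TPM in blood and 49.6 TPM in marrow (-3.66). Of the glycolysis genes, 13 of 18 measured (of 25 listed) were lower, with a median of -0.44, including Gpi1 (-2.71), Aldoa (-2.57) and Pkm (-1.74). Over all measured genes, 53.2% were lower and 1.64% at least 2 lower. Nuclear genes of oxidative phosphorylation were lower in 60 of 76 members, with a median of -0.90, and 5 were at least 2 lower, among them Ndufa9 (-2.38), Ndufb9 (-2.15) and Ndufa8 (-2.08) of complex I and Atp5j (-2.21) of the ATP synthase. The 13 respiratory genes encoded in mitochondrial DNA did not share this, with 5 higher, 8 lower and a median of -0.09. Without the 7 marrow cells that had Ccnb2 above 10 TPM, the median of the nuclear list was -0.49, and on the ratio of mean TPM it was -0.16.

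Other housekeeping lists had medians on the lower side as well, while 53.2% of all measured genes lay below 0. Cytosolic ribosomal protein genes were lower in 61 of 75 members (median -0.37), proteasome genes in 25 of 31 (-0.59) and actin cytoskeleton genes in 29 of 38 (-0.48). With the dividing cells included, these medians lay further down, at -0.48, -0.96 and -0.72. The kept marrow cells still held cells with Ccnb2. Psmd4, a ubiquitin receptor of the proteasome, differed by -3.07, and Capg, an actin filament capping protein, by -2.50 with medians of 97.3 TPM in blood and 709 TPM in marrow. Annexins, galectins and S100 proteins were lower in 18 of 20 measured members (of 21 listed), with a median of -0.93. Lgals1, galectin-1, had medians of 12.4 TPM in blood and 332 TPM in marrow (-2.01), and S100a11 579 TPM in blood and 1094 TPM in marrow (-1.79). Lysosomal genes were lower in 19 of 32 (median -0.39), close to the share over all measured genes. Among them, Lamp1 was at -2.32, Ctsd, cathepsin D, at -2.30 and Asah1, acid ceramidase, at -2.12. On the ratio of mean TPM, however, Asah1 was 0.11 higher in blood.

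**Figure D4:**
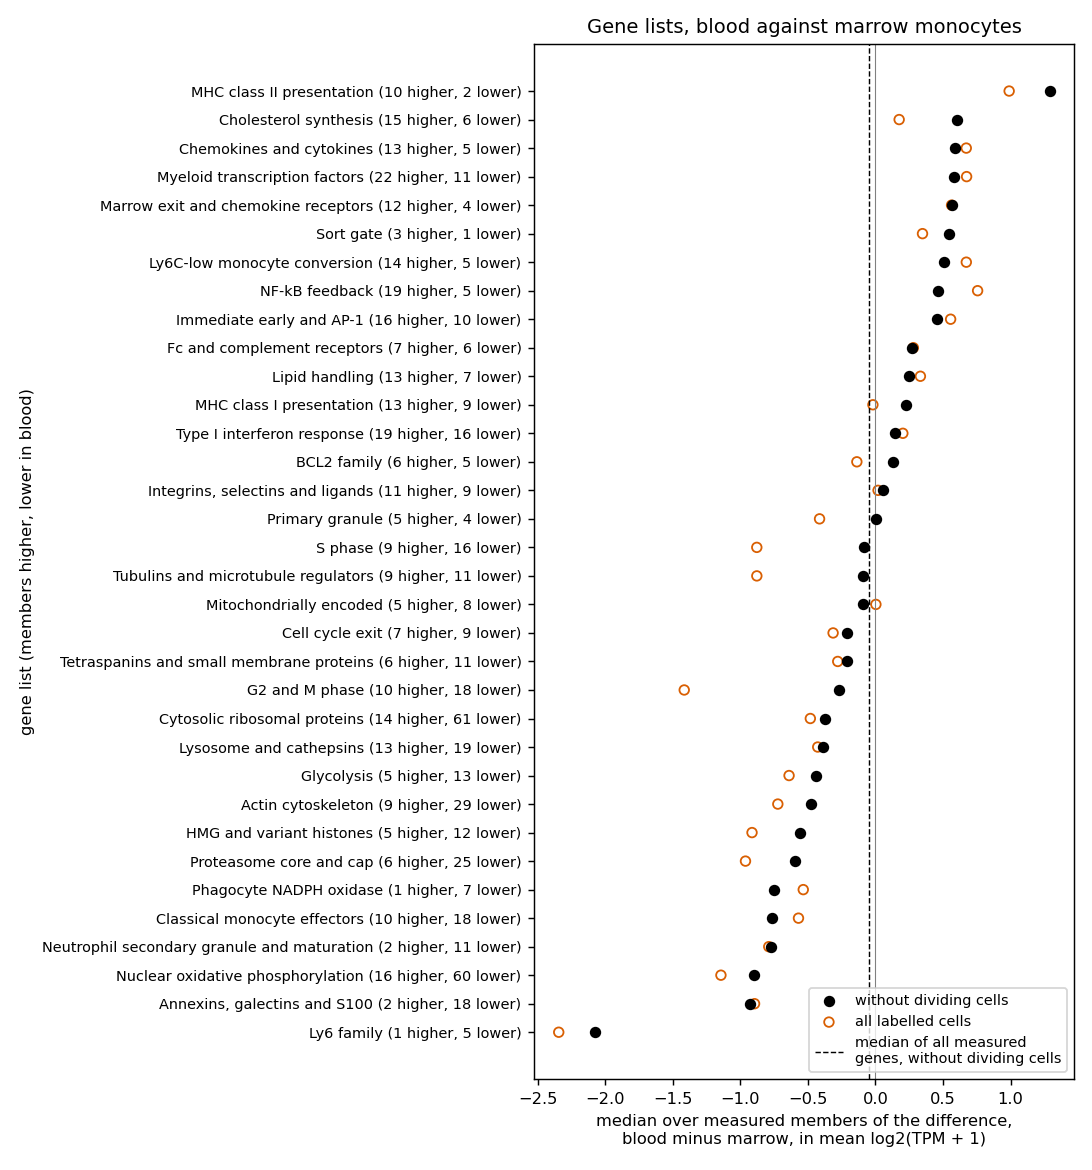
Median difference of each gene list (blood minus marrow, in mean log2(TPM + 1), over its measured members), filled circles without dividing cells and open circles over all labelled cells; the dashed line is the median of all measured genes, -0.05, and the counts give members higher and lower in blood. MHC class II presentation is at the top with 1.29 and the Ly6 family at the bottom with -2.08, and the S phase, G2 and M phase and tubulin lists move furthest between the 2 kinds of circle.

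The Ly6 family, small surface proteins of which Ly6C is the sorted antigen, had the lowest list median, -2.08, with 5 of 6 measured members (of 8 listed) lower. Among all measured genes, 53.2% were lower. Ly6i exceeded 10 TPM in 6 blood and 26 marrow cells (difference -3.15). Ly6g, the antigen of the neutrophil antibody 1A8, had a median of 1.9 TPM in blood (0 to 67.5 TPM) and 41.7 TPM in marrow (0 to 235 TPM), a difference of -3.03, and exceeded 10 TPM in 8 blood and 27 marrow cells. Ly6a, Sca-1, differed by -2.59 and Ly6c2 by -1.47, with Ly6c2 medians of 2723 TPM in blood and 6145 TPM in marrow, and by -0.50 without the 6 cells low in Ly6c2. An annotated pseudogene within the same cluster, I830127L07Rik (chr15:75131377-75135128), had the largest difference of the 3 genes in this stretch, with medians of 6.22 TPM in blood and 1188 TPM in marrow (-5.26). It lies outside the rule for named genes and was chosen after its value was seen. Ly6c2 (chr15:75108158-75111970) and Ly6g (chr15:75155240-75159126) lie on either side of it. Reads can be shared among such similar copies, so the separate values of Ly6 genes are uncertain.

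The lists of granule genes had different medians, but their measured members are mixed and do not contrast the classes of granule. Secondary granule and neutrophil maturation genes were lower in 11 of 13 measured members (of 24 listed), beside 53.2% of all measured genes. Their median was -0.78. Apart from Slpi and Ly6g, Cd177, a neutrophil surface protein, exceeded 10 TPM in 6 blood and 15 marrow cells (-2.46), and Pglyrp1, a peptidoglycan recognition protein, in 3 blood and 9 marrow cells (-1.52). Lcn2 was listed at 0 in all kept blood cells and passed 10 TPM in 3 marrow cells, and Ltf, Camp and Ngp were at 0 throughout. The summed neutrophil markers given above were higher in marrow, and their part in these values was not tested. The list of primary granule genes, which are made in progenitors, was split 5 to 4 among 9 measured (of 17 listed). Its median was 0.00, against -0.41 over all cells. The measured members include the chaperone genes Calr and Hsp90b1, while Mpo and Ctsg fell below the filter. Srgn, the granule proteoglycan serglycin, was higher in blood, with medians of 1026 TPM in blood and 293 TPM in marrow (2.49), and Plac8 differed by 1.13. Elane, neutrophil elastase, was listed at 0 in all kept blood cells and passed 10 TPM in 4 marrow cells, and Prtn3 passed 10 TPM in 0 blood and 4 marrow cells. Phagocyte NADPH oxidase genes were lower in 7 of 8 measured members (of 10 listed; median -0.75), with Rac2 at -2.24 and Ncf1 at -1.73.

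Other single genes lower in blood covered signalling, immunoglobulin and chromatin. Ighm, the IgM heavy chain constant region, had a median of 1.82 TPM in blood (0 to 2113 TPM) and 510 TPM in marrow (0 to 1915 TPM), a difference of -4.03. The B-cell list beside it summed to a median of 2.58 TPM in blood (highest 1050.3 TPM) and 2.27 TPM in marrow (highest 34.9 TPM), and its part in the Ighm values was not tested, while cMoP had an Ighm median of 579 TPM. Tlr2, the receptor for bacterial lipopeptides, had medians of 0 TPM in blood and 23.8 TPM in marrow (-3.11), Rgs18, a brake on G protein signalling, 0 TPM in blood and 35.5 TPM in marrow (-3.32), and Tmem173, the adaptor STING, passed 10 TPM in 1 blood and 15 marrow cells (-3.11). H2afv, a variant histone, exceeded 10 TPM in 1 blood and 18 marrow cells (-3.56), Stag2, a cohesin subunit, in 1 blood and 18 marrow cells (-3.24), and Setd8, a histone H4 methyltransferase, in 4 blood and 21 marrow cells (-2.96). Susd3 (-3.39), the elongation factor subunit gene Eef1d (-3.19), the replication fork repair gene Tonsl (-3.19), Bzw1 (-3.01), Ptpro (-2.94), Samd9l (-2.83), Ndrg1 (-2.56), Tmcc1 (-2.15) and Tecr (-1.73) completed the named genes of this side. At or below 10 TPM in all 29 blood cells, which allows a share of up to 10.3%, were Srp54a, Crnkl1 and Plekha2 (11 of 32 marrow cells each), Zranb2 (10) and Ebi3 (9), although 2 and 3 of the 9 blood cells left out had Srp54a and Ebi3 above 10 TPM.

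What the exclusion did to the comparison can be read gene by gene, although values over all cells and over the kept cells share the kept cells. Over all 95 monocytes, 45 genes (0.392%) were at least 2 higher and 205 (1.79%) at least 2 lower in blood. Of these, 35 and 117 were also past 2 without the dividing cells, 10 and 88 were not, and 30 and 71 were past 2 only without them. Among the 228 nameable genes past 2 over all cells, 159 came closer to 0 and 69 did not, with a median change in size of 0.28 towards 0, and 137 stayed past 2.

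Lists of the cell cycle, on which the rule selects, lay nearer to 0 without the dividing cells. The G2 and M phase list had a median of -0.27 without dividing cells and -1.42 with them (28 measured of 49 listed), and the S phase list -0.09 and -0.88 (25 of 39). Stmn1, a microtubule destabiliser of dividing cells, differed by -1.26 without and -3.74 with the dividing cells, and by -0.21 once the 7 marrow cells with Ccnb2 were left out too. Tuba1b, an alpha-tubulin, differed by 0.03 without and -2.07 with them, Anp32e, a histone chaperone, by -0.65 and -2.09, the splicing factor gene Snrpd2 by -0.79 and -2.19, and the proteasome gene Psmd14 by -1.28 and -2.66. Without the cells with Ccnb2, Anp32e differed by -0.11, Snrpd2 by -0.097 and Psmd14 by -0.51. Pcna, the replication clamp, remained past 2, at -2.12, and was -1.95 without the cells with Ccnb2. The tubulin list, in which Tubb6 (4.15), Marcks (2.93) and Tuba1a (2.30) were at least 2 higher in blood, had a median of -0.09 without dividing cells and -0.88 with them. HMG and variant histone genes had a median of -0.56, with Hmgn2 at -2.70, and at -1.60 without the cells with Ccnb2.

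**Figure D5:**
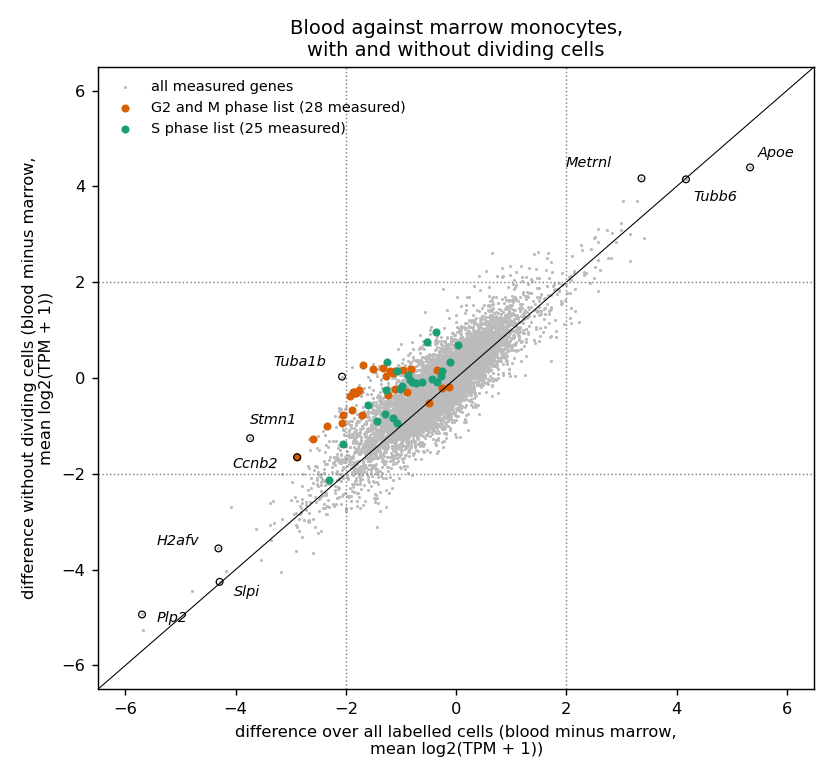
Difference in mean log2(TPM + 1), blood minus marrow, of each measured gene over all labelled cells (horizontal) and without dividing cells (vertical), with the G2 and M phase list in orange, the S phase list in green, the line of equal values and dotted lines at -2 and 2. Tubb6, Plp2 and Slpi lie near the line and far from 0. Apoe lies below the line (5.33 over all cells, 4.40 without dividing cells) and Metrnl above it (3.36 and 4.17). Stmn1 and Tuba1b lie well above the line.

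Large differences that stayed about as large, or were larger, without the dividing cells were those of Slpi (-4.26 without and -4.29 with the dividing cells), Ighm (-4.03 and -4.18), Hk2 (-3.80 and -3.54), Tubb6 (4.15 and 4.17) and Metrnl (4.17 and 3.36). Other differences stood out only without the dividing cells. Eif4a3, a helicase of the exon junction complex, differed by 2.61 without and 0.64 with them, with medians of 24.1 TPM in kept blood and 0 TPM in kept marrow cells, and 65.2 TPM in the marrow cells left out. Tlr2 differed by -3.11 without and -1.44 with them. Genes of cell cycle exit were split, 7 higher and 9 lower of 16, with Cdkn1a (1.51, and 0.93 without the cells with Ccnb2), Cdkn1b (1.29) and Rb1 (1.02, and 0.54 without them) on the side of blood and Ccnd3, cyclin D3, on the side of marrow (-1.56). The BCL2 family was split 6 to 5, with Mcl1, a survival factor of myeloid cells, at medians of 144 TPM in blood and 34.2 TPM in marrow (1.15).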

How the data were processed

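The deposited values are TPM per gene and cell, made by the authors with RSEM 1.2.19 on GRCm38 per the submitters' processing notes; for the aligner and the gene annotation, nothing is given in the sources used here. TPM is scaled to a fixed total, so an abundant transcript lowers all others, and read depth is unknown. Cells were grouped by their labels alone, and 0 table columns lacked a matching library. From TPM the mean of log2(TPM + 1) per group and its difference, blood minus marrow, were computed (Python 3.11.15, numpy 2.4.6, pandas 2.3.3); the pseudocount of 1 understates differences of low genes. Shares above 10 TPM carry exact Clopper-Pearson intervals of 95% (scipy 1.17.1). Where 0 cells passed, the limit given is 3 cells of the group and not that interval. The upper end of the exact interval is 11.9% for 0 of 29 cells and 10.9% for 0 of 32 cells. Reads of similar paralogues (tubulins, MHC, histone and Ly6 genes) may be split uncertainly. Doublets were not called, and the labels do not say how capture sites were screened for them. The functions were tested on simulated data.

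Named genes were the rule and gate genes, and the 15 largest differences each way among genes above 10 TPM in at least 50% of the higher group. Added were the next 10 by share, up to 5 in 1 group alone and up to 4 of each of the lists. Last came the 5 most shrunken genes and the 5 with the largest difference over all cells among the least shrunken 50%. Predicted, mitochondrial and ribosomal genes were left out except in lists. H2-DMa, H2-DMb1, Ciita, Pltp, Ccr2, Klf4, Lyz2, Fos, Jun, S1pr1, S100a9, Elane, Prtn3, Zbtb46, Cd209a, Batf3, Tlr2 and other list members beyond the 4 are given outside that rule where shown. Members, rule and all 47 lists were chosen with earlier results of these data known. Gene positions are from GENCODE M21 (GRCm38). Alternatives covered the pseudocount, scaling, filters, limits and left-out cells. A few genes that the rule or lists hold are not reported here.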

Additional observations from a re-analysis of the deposited data

How the results depend on the processing

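With 1 sample per group no replicate could be left out, and depth per cell is unknown; the number of cells, 29 and 32, limits the shares. No paired analysis was possible because the labels give no replicate number, animal or batch that joins blood and marrow cells. Against 65 genes at least 2 higher and 188 at least 2 lower, a pseudocount of 0.1 gave 184 and 559, a pseudocount of 10 gave 13 and 22, and the log2 ratio of mean TPM gave 942 and 1259. A limit of 1 TPM for a dividing cell, which left 7 blood and 10 marrow cells, gave 289 and 806. Shares at least 25 points higher and lower, 95 and 298 genes, became 497 and 1324 under that limit. The higher count was 55 over all labelled cells and 155 for shares above 1 TPM, and for shares above 100 TPM the counts were 55 and 120. A limit of 100 TPM, chosen after seeing the data, gave 38 genes at least 2 higher and 54 by share. Leaving out cells with Ccnb2 or with low Ly6c2, also chosen after seeing the data, kept all counts within 1.5 times. Without the cells with Ccnb2, the genes no longer past 2 included Atf3 (1.76), Ctsd (-1.52), Gngt2 (1.37), Hmgn2 (-1.60), Ier5 (1.94), Lgals1 (-1.21), Ndufa8 (-1.55), Pcna (-1.95), Picalm (1.84), Psmb6 (-1.44), Srgn (1.87) and Usp18 (-1.85). Without the cells low in Ly6c2 they were Atp5j (-1.99), Cd300ld (1.91), Ezr (1.99), Gngt2 (just under 2), H2-DMb1 (1.96), Lair1 (1.77), Lgals1 (-1.94), Pcna (-1.61), Picalm (1.95), Psmb6 (-1.09), Rac2 (-1.76) and Selplg (-1.98).

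Among genes past 2 and list medians of at least 0.5 in size, a change of sign was found for Asah1 on the ratio of mean TPM (0.11), and otherwise under the limit of 1 TPM: MHC class II presentation (-0.025), chemokine receptors (-0.060), chemokines (-0.20), neutrophil markers (0.25), stem and progenitor markers (-0.20), Cd177 (0.25), Cd74 (-0.65), Maf (-0.53) and Selplg (0.0087). The cause was not tested, though that limit keeps few cells. Of the 89 named genes past 2, 84 kept their direction in every one of the 18 alternatives that gave a value. The alternatives on shares gave none, and a change in the filter on low values could not alter the difference of a gene. Of 141 named genes under 2, 26 changed sign under the limit of 1 TPM, among them Klf4 (1.57), Ebp (3.53), Il1b (-0.20), Cdkn1a (-0.29), H2-DMa (-0.17), Cmklr1 (-0.28), Stmn1 (0.30) and Jun (0.64), and at most 8 did in any other alternative. The filters on low Ly6c2 (10 TPM) and on ribosomal or mitochondrial shares removed 0 cells.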
